A study of Pinus armandii with 6 samples.

Results

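The unigenes described here are those of the spliceosome in seed kernels of the pine Pinus armandii. They are the unigenes whose KEGG pathway field holds the spliceosome but not mRNA surveillance, whose symbol does not begin with HSP or HSC, and whose best database hit is a protein of Picea, Pinus or Taxus. The rule took 123 of 65117 unigenes and used no expression value. Unigenes are assembled transcripts: pieces or splice forms of a gene may count as separate unigenes, and similar copies may share reads in unknown proportion. RNA-seq was done on kernels from cones cut at the end of August (3 libraries) and at the end of September (3 libraries). No treatment, genotype or tree age is given. The replicates are labelled biological, but the tree, cone or seed pool behind each is not named, so the error in each p-value is the spread among these libraries and may be partly technical.

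The spliceosome removes introns from pre-mRNA and joins the exons. The U1 particle recognises the start of an intron and the U2 particle its branch point, after which the U4/U6.U5 tri-snRNP joins and the PRP19 complex helps the machine become active. DEAD- and DEAH-box helicases drive each rearrangement, and SR and hnRNP proteins bind the pre-mRNA and influence which splice sites are used. In plants the SR proteins form several families, some of them found in plants only, and transcripts of SR genes are themselves often spliced in more than one way.

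The best hits of the members lay in Picea for 79, in Taxus for 42 and in Pinus for 2, and 120 of these hits were proteins described as unknown or hypothetical. Identity therefore rests on the symbol and the KEGG orthology entry, which gave 66 entries over 107 distinct best hits. Leaving out 1 entry for HSP70-type chaperones, which KEGG counts with the spliceosome, 65 spliceosomal subunits or classes had at least 1 member. PRP8 and BRR2, the large U5 proteins, were not among them. A symbol is the name of a similar gene, mostly of Arabidopsis, and can go against the orthology entry. Unigene0002379 has the symbol PAD4, a defence gene of Arabidopsis, and the orthology entry of the SR protein SRSF7. Roles in the text follow the orthology entry.

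Total counts per library ran from 12849649 to 17379628, and 98.6% to 99.7% of them fell in the 23216 unigenes that passed the low-count filter. Log2(CPM + 1) of the tested members correlated between libraries of a month with r from 0.993 to 0.995 and between months with r from 0.921 to 0.940, as a description across 111 unigenes. No library pair agreed within sampling noise. Unigenes of seed marker classes and green tissue were found by words in the description of the best hit, which misses hits described as unknown. The most abundant unigenes so found for 6 seed marker classes were present in every library and differed between the months, given in CPM (counts scaled to library size). The August and September ranges were 2035 to 2206 and 734 to 823 for oleosin, a protein of seed oil bodies, and 2783 to 3246 and 1148 to 1358 for albumin, a storage protein. They were 677 to 770.4 and 579 to 646 for late embryogenesis abundant protein, and 27.4 to 42.3 and 2.37 to 3.57 for dehydrin, both linked to desiccation. The storage proteins vicilin (323 to 338, then 558 to 586) and legumin (195 to 208, then 328 to 436) lay higher in September. Summed unigenes of chlorophyll-binding proteins and Rubisco small subunit lay at 253 to 283 CPM in August and 339 to 380 CPM in September. Summed unigenes with a best hit in protist genera lay at 98.1 to 199 CPM in August and 47.3 to 66.0 CPM in September. The part of these differences in the values below was not tested. In bulk kernels, fewer cells of a type and less RNA per cell cannot be told apart.

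Spliceosome transcripts passed the test about as often as other transcripts. Their changes between the harvests were smaller in size than those over all tested unigenes, as were those of related lists. Of 111 members tested with edgeR, 33 were higher in September, 38 were lower and 40 did not pass an adjusted p of 0.05. The share passing was 64.0%, beside 67.8% of all tested unigenes, of which 35.4% were higher and 32.5% lower. With a change of at least 2-fold asked as well, 7 members were higher and 5 lower, 10.8% of those tested, beside 36.7% of all unigenes (24.3% higher and 12.4% lower). The median size of the log2 fold change was 0.35 over the members and 0.69 over all unigenes. With best hits in the same 3 genera, it was 0.45 for mRNA surveillance, 0.41 for nucleocytoplasmic transport and 0.53 for RNA degradation. It was 0.37 for spliceosome unigenes with a best hit in another genus. In the order given, 11.8%, 8.47%, 17.2% and 10.4% of these lists passed with at least 2-fold change. The median log2 fold change itself was -0.02 over the members and 0.03 over all unigenes. The months did not overlap in 77 members (69.4%), beside 72.9% of all tested unigenes. Members were more abundant than most unigenes, with a median of 52.5 CPM against 9.45 CPM. The sizes of change above were not matched for abundance, so its part in their difference was not tested. The median coefficient of variation of the members within a month was also smaller, at 7.65% in August and 4.85% in September against 13.0% and 11.2%.

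The summed level of the 123 members was 9225, 9016 and 8944 CPM in the August libraries and 9473, 9495 and 9569.9 CPM in the September libraries. On this scale September was 1.05 times August and the months did not overlap. Per length, the sum was 3931, 3916 and 3889 FPKM (scaled to library size and unigene length) in August and 3794, 3818 and 3780.0 FPKM in September, so the order of the months was the opposite. The 2 scales weigh long and short unigenes differently, and the relation of change to length is given further down.

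**Figure D1:**
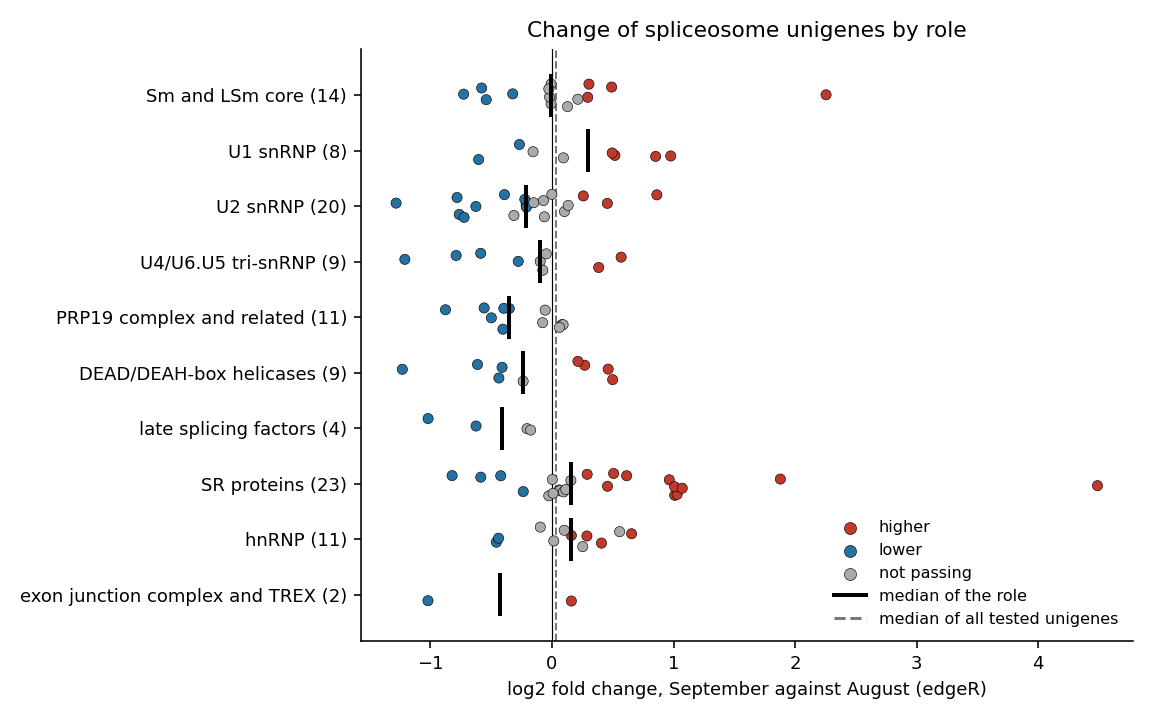
Change of each tested spliceosome unigene between the harvests, by role (number tested in brackets). The x axis is the edgeR log2 fold change of September against August, each point is a unigene coloured by its call, thick bars are role medians and the dashed line is the median of all tested unigenes (0.03). U1 unigenes have the highest role median (0.29), no PRP19 complex unigene is called higher, and the SR unigenes spread the widest, from -0.82 to 4.49. The value of 4.49 is that of RS41 Unigene0070887, with 1, 4 and 3 August counts, and the next highest SR value is 1.88.

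The roles did not move as a block. The median log2 fold change was 0.29 for the U1 particle, 0.16 for the hnRNP and 0.15 for the SR unigenes. It was -0.01 for the Sm and LSm core, -0.10 for the tri-snRNP, -0.21 for U2, -0.24 for the helicases, -0.35 for the PRP19 complex, -0.42 for the late factors and -0.43 for the 2 tested THO unigenes of TREX. No test was made between roles. Members described below were named by a rule or, for the others, singled out after their values were seen. Most calls said below to be lost with a library left out were also lost with DESeq2, another count test, on all 6 libraries.

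**Figure D2:**
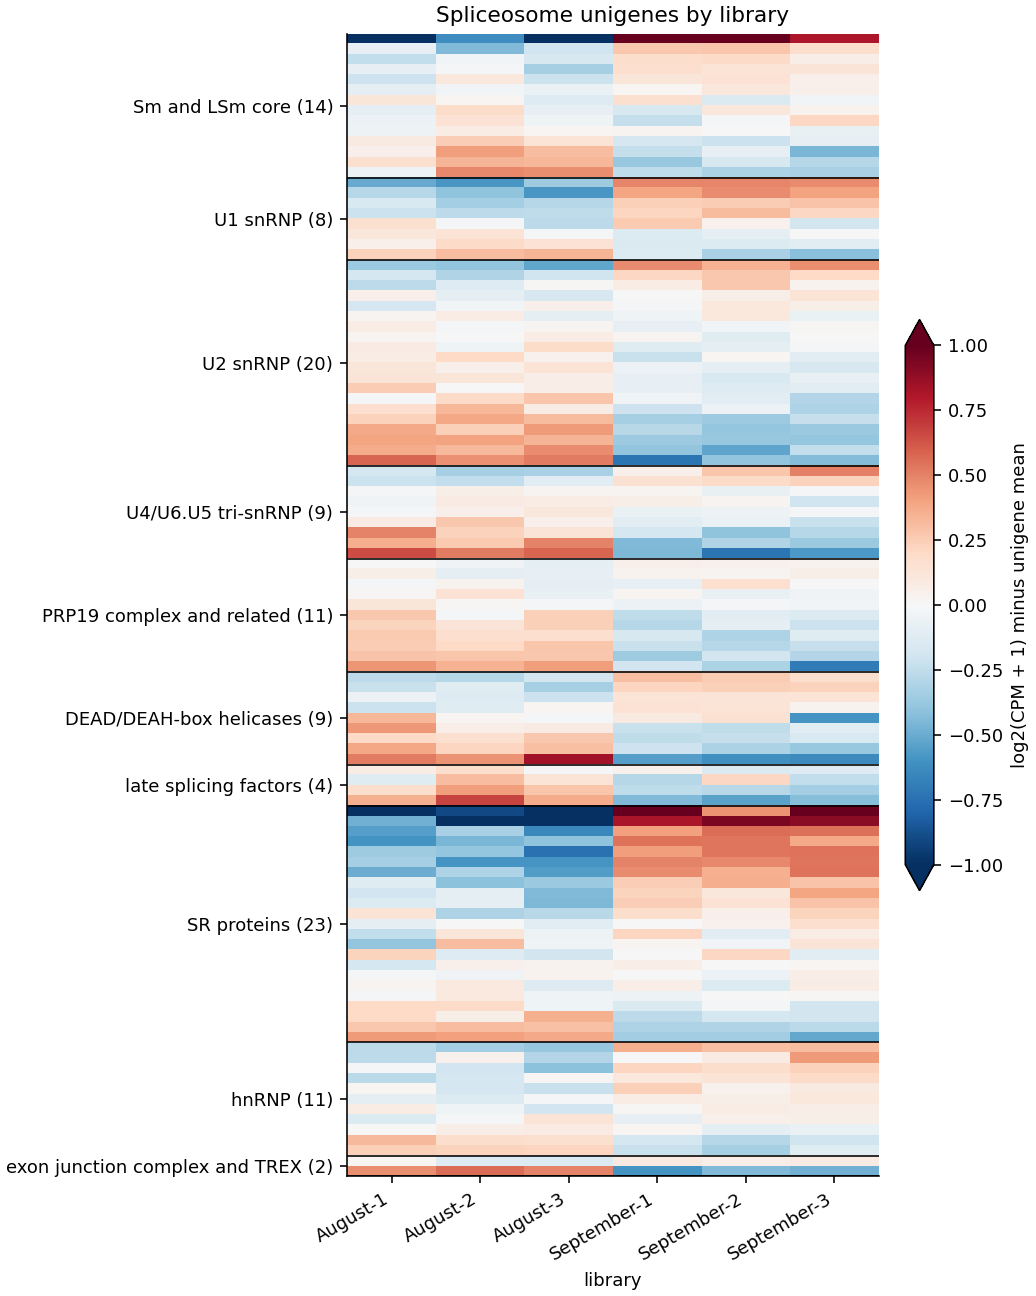
Level of every tested spliceosome unigene in each library, as log2(CPM + 1) minus the unigene's mean over the 6 libraries, grouped by role and sorted within a role by change. Colours are limited to -1 and 1. The 3 libraries of a month resemble each other in nearly every strongly coloured row.

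Sm and LSm proteins form the rings that bind the snRNAs. Of 14 tested unigenes, 4 were higher, 4 lower and 6 did not pass. The most abundant per length was SNRPD2, the SmD2 protein, at 157 ± 6.74 FPKM in August and 153 ± 6.17 FPKM in September (log2 fold change -0.03, adjusted p = 0.713). The largest change was in Unigene0002187, annotated as SmE, with 4.05, 5.63 and 2.86 CPM in the August libraries and 20.2, 22.4 and 16.9 CPM in the September libraries. Every September library was above every August library (log2 fold change 2.25, SE 0.222, adjusted p = 1.28e-05), and with other unigenes of its best hit summed the log2 fold change was 0.72. This unigene has an implied length of 7232 bases, while the 2 other SmE unigenes have 868 and 1190, and SmE is a small protein. Whether it also holds sequence of another gene was not tested, so its level may not be that of SmE alone. Of those shorter SmE unigenes, Unigene0041127 had 22.1 ± 2.90 CPM in August and 31.1 ± 1.25 CPM in September (log2 fold change 0.49, adjusted p = 0.00273). The other, Unigene0041128, had 23.1 ± 2.66 CPM in August and 28.3 ± 0.412 CPM in September (log2 fold change 0.29, adjusted p = 0.0295), a call lost with the first or the third August library or any September library left out (adjusted p from 0.0557 to 0.141). LSM8, of the ring on U6 snRNA, was called higher (log2 fold change 0.30, adjusted p = 0.0285), a call lost without the first or the third August or the first or second September library (adjusted p from 0.0679 to 0.119). The 4 lower unigenes were LSM2 (log2 fold change -0.73), 1 of the 2 LSM5 unigenes (-0.58), SmF (-0.54) and SmD3 (-0.32). Their adjusted p-values lay between 0.00149 and 0.0119. The summed level of the role came to 389.6 ± 20.9 CPM in August and 406 ± 11.4 CPM in September. Per length, it was 399 ± 21.0 FPKM in August and 397 ± 12.0 FPKM in September. On both scales the months overlapped.

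Transcripts of the U1 particle and its partners were higher in September in 4 of 8 unigenes, lower in 2, and 2 did not pass. Their summed level came to 761 ± 25.7 CPM in August and 1048 ± 17.8 CPM in September, 1.38 times as high, and the months did not overlap. U1C, a zinc-finger protein that steadies the pairing of U1 with the intron start, had 2 unigenes with the same best hit. Unigene0070056 had 41.5, 39.2 and 46.1 CPM in the August libraries and 83.5, 83.6 and 82.6 CPM in the September libraries (log2 fold change 0.98, SE 0.0749, adjusted p = 2.38e-06). Unigene0068668 had 11.6 ± 1.82 CPM in August and 12.3 ± 2.06 CPM in September and did not pass (log2 fold change 0.09, adjusted p = 0.642). The months of the first were apart by far more than the spread of its libraries, while those of the second overlapped.

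The U1-70K unigene (symbol RNU1), whose protein contacts SR proteins, had 93.6, 86.2 and 76.2 CPM in the August libraries and 150.5, 159.6 and 152 CPM in the September libraries (log2 fold change 0.85, SE 0.0778, adjusted p = 7.65e-06). RBM25, a U1-associated regulator of splice site choice, was the most abundant U1 member after PRP40A by counts, at 239, 209 and 218 CPM in the August libraries and 313, 317 and 324 CPM in the September libraries (log2 fold change 0.52, adjusted p = 4.42e-05). PRP40A, which in yeast bridges the ends of the intron, had 1 unigene that rose and 1 that fell. Unigene0041378 had 260.4 ± 4.53 CPM in August and 367 ± 15.1 CPM in September (log2 fold change 0.49, adjusted p = 2.49e-05), and Unigene0069522 had 30.6 ± 1.49 CPM in August and 25.4 ± 0.372 CPM in September (log2 fold change -0.27, adjusted p = 0.0177). The second call was lost without the first September library (-0.26, adjusted p = 0.0504) or without the second September library (-0.26, adjusted p = 0.0502). U1A, which binds a U1 snRNA hairpin, fell from 38.4 ± 1.51 to 25.2 ± 2.61 CPM (log2 fold change -0.60, adjusted p = 3.02e-04).

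The U2 role, with the SF3A and SF3B complexes at the branch point and the U2AF heterodimer at the intron end, had 20 unigenes, all tested. In September 3 were higher, 9 were lower and 8 did not pass. Its summed level came to 1761 ± 13.0 CPM in August and 1588 ± 15.9 CPM in September. U2AF35, the small U2AF subunit that reads the last bases of the intron, was covered by 4 unigenes, of which 1 fell, 2 were called higher and 1 did not pass. U2AF35A Unigene0026445 had 174, 174 and 167 CPM in the August libraries and 102, 101 and 100.4 CPM in the September libraries (log2 fold change -0.76, SE 0.0535, adjusted p = 1.31e-06). U2AF35B Unigene0006096 had 85.3, 83.8 and 76.9 CPM in the August libraries and 153, 141 and 153 CPM in the September libraries (log2 fold change 0.86, SE 0.0663, adjusted p = 2.40e-06). The first fell and the second rose, neither with overlap between the months. With both U2AF35B unigenes summed the log2 fold change was 0.32.

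The other U2AF35B unigene, Unigene0006095, has the same best hit as Unigene0006096 and was the most abundant by counts. It had 221, 229 and 204 CPM in the August libraries and 212, 234 and 208 CPM in the September libraries, with overlapping months (log2 fold change -0.00, adjusted p = 0.984). The other U2AF35A unigene, Unigene0054336, had 57.0, 62.5 and 69.0 CPM in the August libraries and 72.3, 82.7 and 70.1 CPM in the September libraries and was called higher (log2 fold change 0.26, adjusted p = 0.0283). That call ended when 1 library was left out, be it the first from August (0.17, adjusted p = 0.149), the second from August (0.23, adjusted p = 0.0899) or the second from September (0.18, adjusted p = 0.119). Summed over the 4 unigenes, U2AF35 had 534 ± 16.5 CPM in August and 543 ± 13.6 CPM in September and did not pass (log2 fold change 0.02, adjusted p = 0.706). The large subunit U2AF65, which binds the pyrimidine tract, also had a unigene that rose, U2AF65B (log2 fold change 0.46, adjusted p = 8.75e-05), and one called lower, uaf-1 (log2 fold change -0.21, adjusted p = 0.0306). The uaf-1 call was lost if the second September library or the third was left out (adjusted p from 0.0671 to 0.113).

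Among the branch-point proteins, SF3A3 (symbol ATO, whose Arabidopsis mutant atropos is defective in the female gametophyte) had 146 ± 8.18 CPM in August and 94.8 ± 4.53 CPM in September (log2 fold change -0.63, adjusted p = 1.92e-05). U2B'', which binds U2 snRNA, had 29.4 ± 2.00 CPM in August and 17.8 ± 0.755 CPM in September (log2 fold change -0.72, adjusted p = 1.07e-04). A unigene with the SF3B1 entry, Unigene0038533, had 6.74, 6.08 and 6.42 CPM in the August libraries and 2.11, 2.94 and 2.84 CPM in the September libraries (log2 fold change -1.28, SE 0.214, adjusted p = 4.20e-04). It was the largest fall in the role, at a low level and in a unigene of 924 bases, although SF3B1 is a large protein. SF3B5, SF3B3 (named by its entry, with the symbol DBB1) and SF3B2 were also lower, with log2 fold changes of -0.39, -0.22 and -0.21. The call of SF3B3 was lost in turn without the first August library or any single September library (adjusted p from 0.0559 to 0.0846), and that of SF3B2 without the second September library (-0.19, adjusted p = 0.0565). RRC1, an SR140-related factor needed for red-light responses in Arabidopsis, had 2 unigenes. Unigene0071279 had 225 ± 11.7 CPM in August and 131 ± 12.7 CPM in September (log2 fold change -0.78, adjusted p = 1.25e-05), and Unigene0071278 had 202 ± 15.4 CPM in August and 182 ± 6.58 CPM in September (log2 fold change -0.15, adjusted p = 0.0687). SF3A2, U2A' and both SF3B4 unigenes did not pass. Neither SF3B14 unigene passed alone (adjusted p = 0.0539 and 0.0507), while the months did not overlap in either, and their sum was called lower (log2 fold change -0.24, adjusted p = 0.0169).

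**Figure D3:**
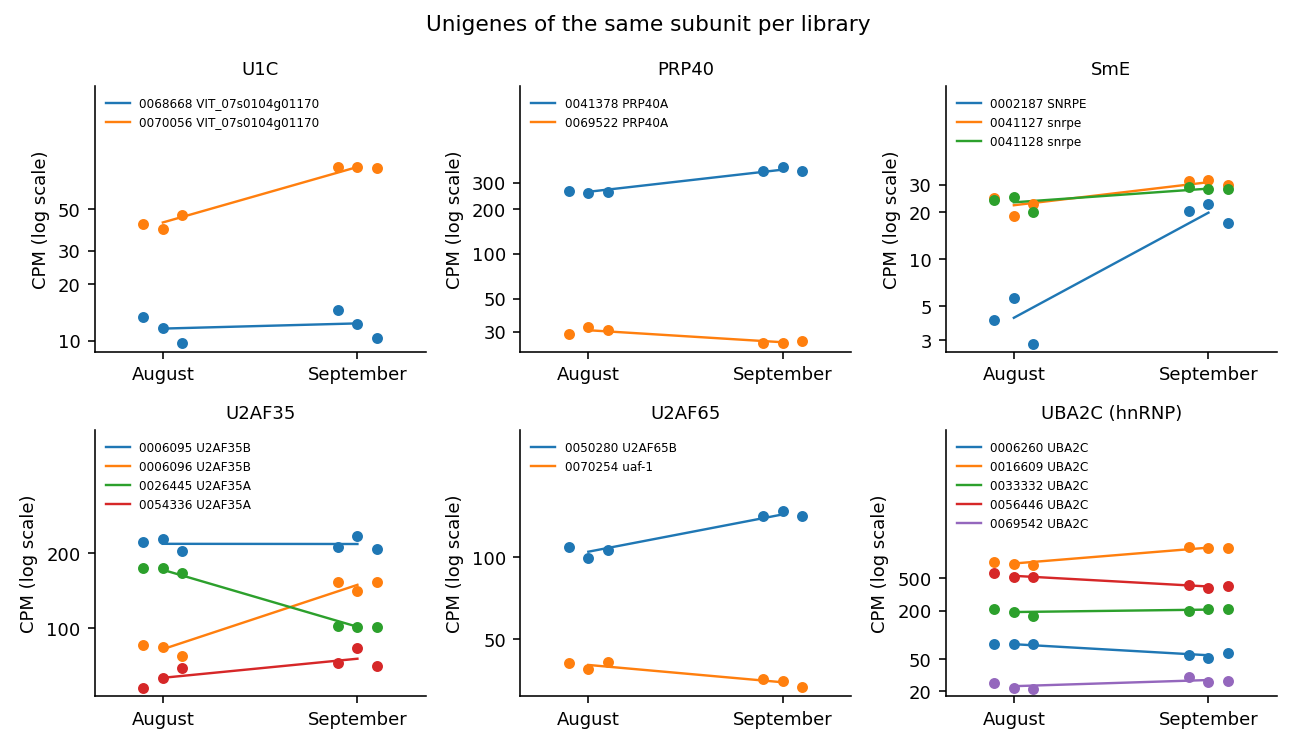
CPM per library (log scale) of the unigenes annotated as the same subunit, for U1C, PRP40, SmE, U2AF35, U2AF65 and the hnRNP UBA2C. Points are the libraries of each month, lines join the means of the months, and colours are unigenes. In the U2AF35 panel one unigene falls from about 171 to 101 CPM while another rises from 82.0 to 149 CPM.

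Of 9 tri-snRNP unigenes, each a different protein, 2 were higher, 4 lower and 3 did not pass. LIS, the U4/U6 protein PRP4, whose Arabidopsis mutant lachesis has misspecified gametophyte cells, had 45.5, 41.3 and 43.2 CPM in the August libraries and 20.6, 16.8 and 18.8 CPM in the September libraries (log2 fold change -1.21, SE 0.0991, adjusted p = 3.70e-06). Its August libraries were more than 2-fold above its September libraries on average, with a mean ratio of 2.31. SNU23 (symbol ZMAT2), PRP38 and SNU13, proteins that act at or before activation, had log2 fold changes of -0.79, -0.59 and -0.28. The call of SNU13 was lost without the second August library or the first or the third September library (adjusted p from 0.0644 to 0.121). RDM16, the U4/U6 protein PRP3, had 123 ± 7.92 CPM in August and 183 ± 29.0 CPM in September (log2 fold change 0.57, adjusted p = 7.77e-04). DOT2, the tri-snRNP protein SART1, had 134 ± 6.43 CPM in August and 174 ± 4.81 CPM in September (log2 fold change 0.38, adjusted p = 2.33e-04). CLO, the U5 GTPase SNU114 and the most abundant of the role per length, had 153, 161 and 168 CPM in the August libraries and 148, 150.0 and 153 CPM in the September libraries (log2 fold change -0.10, adjusted p = 0.153). Its August values lay above its September values with a small gap. Without the first August library it passed (-0.16, adjusted p = 0.0394).

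The PRP19 complex and related proteins had no unigene called higher, 6 called lower and 5 not passing, among 11 tested of 13. The summed level came to 884 ± 30.2 CPM in August and 787 ± 8.52 CPM in September, with no overlap. Both proteins that define the complex did not pass. PRP19, its ubiquitin ligase, had 163 ± 10.3 CPM in August and 172 ± 1.75 CPM in September (log2 fold change 0.08, adjusted p = 0.261), and CDC5, its MYB-related partner, had 221 ± 11.9 CPM in August and 209 ± 3.11 CPM in September (log2 fold change -0.08, adjusted p = 0.253). BUD31, the most abundant per length, had 88.3, 86.2 and 83.0 CPM in the August libraries and 91.9, 91.4 and 91.0 CPM in the September libraries (log2 fold change 0.09, adjusted p = 0.185), and its September libraries were above its August libraries by a small step. The largest fall was in CCDC12, a factor bound during activation, with 12.7, 11.9 and 12.5 CPM in the August libraries and 7.83, 7.09 and 5.20 CPM in the September libraries (log2 fold change -0.88, SE 0.168, adjusted p = 0.00105). The other lower unigenes were CWC15 (-0.56 on the log2 scale), CRN, the crooked neck protein (-0.50), CTNNBL1 (-0.40), MOS4, which acts in Arabidopsis immunity with CDC5 (-0.40), and PQBP1 (-0.35). The PQBP1 call was lost without the first September library (-0.31, adjusted p = 0.0514).

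Of 9 helicase unigenes, 4 were higher, 4 lower and 1 did not pass. The unigene At4g01020 is filed under the entry of PRP22, the DEAH-box helicase that releases spliced mRNA. This entry holds 3 unigenes with different symbols, and which of them encodes PRP22 was not tested. At4g01020 had 82.7, 78.7 and 104 CPM in the August libraries and 38.9, 37.3 and 36.7 CPM in the September libraries (log2 fold change -1.23, SE 0.103, adjusted p = 4.36e-06). The months were far apart, although the third August library was higher than the other two. A second unigene with the PRP22 entry, At1g27900, was lower too (log2 fold change -0.44, adjusted p = 0.00166), and the third, RID1, had 4.77 ± 0.789 CPM in August and 4.02 ± 1.30 CPM in September and did not pass. ESP3, the PRP2 helicase that acts before the first step, had 74.8 ± 11.3 CPM in August and 56.4 ± 2.94 CPM in September (log2 fold change -0.41, adjusted p = 0.00518). The PRP5 entry Os08g0159900, a helicase that helps U2 bind, had 30.2 ± 1.12 CPM in August and 42.7 ± 1.87 CPM in September (log2 fold change 0.50, adjusted p = 2.91e-04).

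The DDX5 entry held 4 DEAD-box unigenes. RH20 Unigene0060378, the most abundant helicase per length, had 154, 147 and 138 CPM in the August libraries and 177, 176 and 176 CPM in the September libraries (log2 fold change 0.27, adjusted p = 0.00213). The other RH20 unigene, Unigene0060379, was called higher (log2 fold change 0.21, adjusted p = 0.0373), a call lost without either of the first 2 August or the first 2 September libraries (adjusted p from 0.0994 to 0.18). RH14 rose (log2 fold change 0.46, adjusted p = 3.34e-04) and DBP2 fell (log2 fold change -0.61, adjusted p = 5.69e-05). Among the late factors, which act around the second step, PRP18 Unigene0017915 had 15.8, 19.9 and 15.9 CPM in the August libraries and 8.65, 8.07 and 8.75 CPM in the September libraries (log2 fold change -1.02, SE 0.139, adjusted p = 1.14e-04). Another PRP18 unigene, Unigene0038839, also fell (log2 fold change -0.62, adjusted p = 0.00122). The third PRP18 unigene and PRP17 (symbol Cdc40) did not pass, with log2 fold changes of -0.18 and -0.21.

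SR proteins carry an arginine- and serine-rich tail and an RNA-binding domain. Of 25 unigenes 23 were tested: 11 were higher, 4 lower and 8 did not pass. Of the 7 members of the whole set that were at least 2-fold higher, 6 were SR unigenes, 26.1% of those tested in the role. Over all tested unigenes 24.3% were at least 2-fold higher, a similar share. The summed level of the role came to 1174 ± 32.5 CPM in August and 1295 ± 23.0 CPM in September, a ratio of 1.10. Per length, the sum was 419 ± 8.32 FPKM in August and 421 ± 2.76 FPKM in September, and the months overlapped. The summed levels of U1, U2, the PRP19 complex and the hnRNP kept their direction per length.

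The RS family, specific to plants and filed under the entry of SRSF4, SRSF5 and SRSF6, had 6 unigenes. RS41 Unigene0051625 had 8.80, 5.19 and 5.65 CPM in the August libraries and 23.0, 25.1 and 24.4 CPM in the September libraries (log2 fold change 1.88, SE 0.184, adjusted p = 1.24e-05). RS41 Unigene0050169, with the same best hit, had 11.7, 13.9 and 10.9 CPM in the August libraries and 23.7, 26.4 and 26.3 CPM in the September libraries (log2 fold change 1.07, SE 0.122, adjusted p = 3.45e-05). In both, each September library was well above each August library, and their summed log2 fold change was 1.44. RS41 Unigene0070887 was nearly silent in August and low in September, with 0.0624, 0.297 and 0.191 CPM in the August libraries and 4.77, 2.30 and 5.52 CPM in the September libraries (log2 fold change 4.49, SE 0.537, adjusted p = 4.75e-05). Its fold change rests on 1, 4 and 3 August counts. RS41 Unigene0011661, the RS41 unigene with the most counts, had 72.6, 53.2 and 54.3 CPM in the August libraries and 74.8, 68.6 and 77.0 CPM in the September libraries, and the call was weak (log2 fold change 0.29, adjusted p = 0.046). It was lost without the second August library (0.19, adjusted p = 0.207) or the third (0.19, adjusted p = 0.201), and in turn without the first September library (0.28, adjusted p = 0.0943) or the third September library (0.26, adjusted p = 0.122). RS41 Unigene0004275 rose as well, with 14.9 ± 1.90 CPM in August and 21.2 ± 2.19 CPM in September (log2 fold change 0.51, adjusted p = 0.00635). RS31 was called lower (log2 fold change -0.24, adjusted p = 0.0368), a call lost without either of the first 2 August libraries or the first or the third September library (adjusted p from 0.0815 to 0.131).

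The SRSF1 entry, which in Arabidopsis covers SR30 and SR34, had 5 unigenes. SR30 Unigene0046679 had 93.0, 77.6 and 77.8 CPM in the August libraries and 166, 164 and 170.2 CPM in the September libraries (log2 fold change 1.01, SE 0.0769, adjusted p = 2.29e-06). SR30 Unigene0035815 had 66.6, 65.6 and 64.2 CPM in the August libraries and 38.4, 38.4 and 34.2 CPM in the September libraries (log2 fold change -0.82, SE 0.0739, adjusted p = 6.84e-06). The first about doubled and the second nearly halved, with no overlap in either. The other SR30 unigenes did not pass: Unigene0071749 had 43.1 ± 1.06 CPM in August and 43.4 ± 1.96 CPM in September and Unigene0035814 had 13.5 ± 2.28 CPM in August and 14.0 ± 1.75 CPM in September. SR34A Unigene0042105 had 60.2 ± 6.37 CPM in August and 44.9 ± 1.48 CPM in September (log2 fold change -0.42, adjusted p = 0.00165). SR34A has the same best hit as Unigene0046679, and their summed counts rose (log2 fold change 0.60), so the fall of SR34A depends on keeping them apart. Unigene0046679 has 8246 bases and SR34A has 1793, so the first weighs more in summed counts. Summed over the entry, SRSF1 had 265 ± 13.3 CPM in August and 306 ± 1.84 CPM in September (log2 fold change 0.21, adjusted p = 0.00713).

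**Figure D4:**
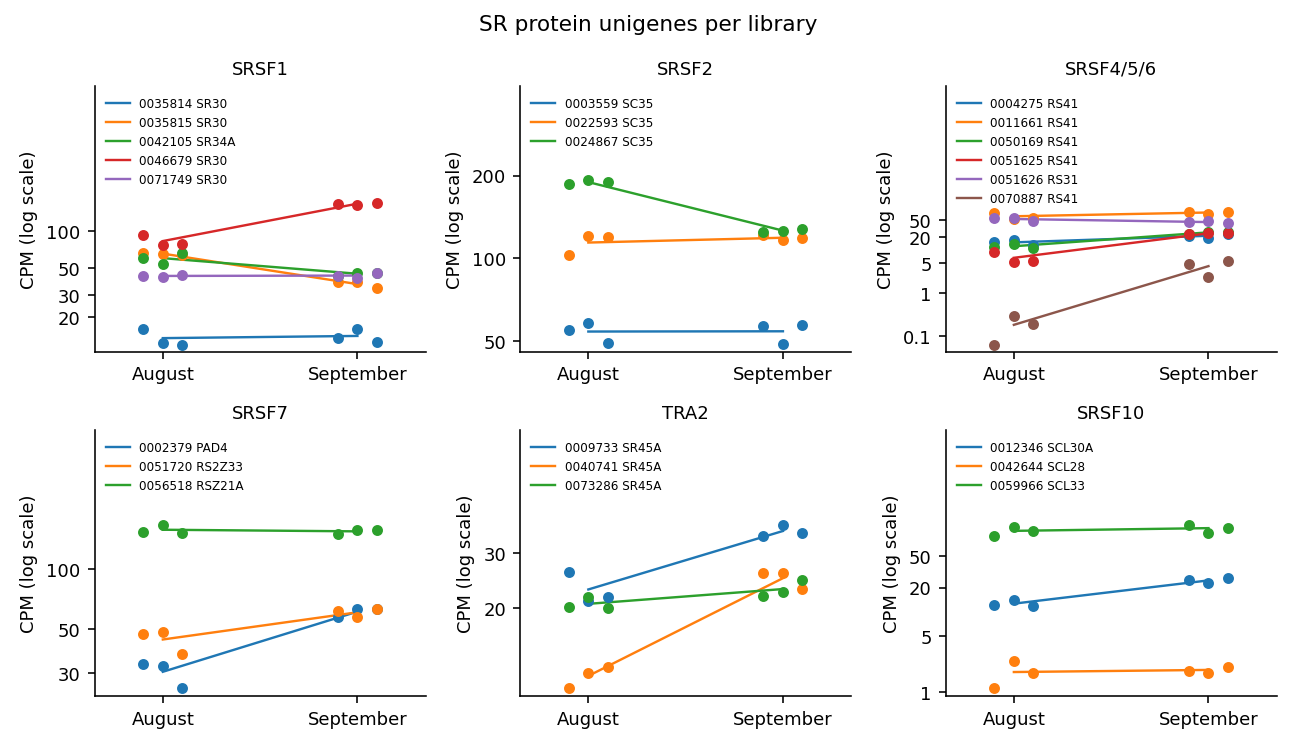
CPM per library (log scale) of the tested SR protein unigenes in 6 panels, 1 per orthology entry. Points are the libraries of each month, lines join the means of the months and colours are unigenes. In the SRSF1 panel Unigene0046679 rises and Unigene0035815 falls, and in the SRSF4/5/6 panel the RS41 Unigene0070887 lies far below the rest in August.

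The transformer-2-like entry (TRA2) had 3 unigenes of SR45A, whose splicing in Arabidopsis responds to stress. Unigene0040741 had 11.2, 12.5 and 13.0 CPM in the August libraries and 25.9, 25.9 and 23.0 CPM in the September libraries (log2 fold change 1.03, SE 0.112, adjusted p = 2.54e-05). Unigene0009733 had 23.0 ± 2.70 CPM in August and 35.2 ± 1.53 CPM in September (log2 fold change 0.61, adjusted p = 4.31e-04), and Unigene0073286 had 20.7 ± 0.899 CPM in August and 23.0 ± 1.45 CPM in September (log2 fold change 0.15, adjusted p = 0.188). Summed, the entry had 55.9 ± 1.48 CPM in August and 83.2 ± 1.85 CPM in September (log2 fold change 0.57, adjusted p = 2.32e-05). The SRSF7 entry held RSZ21A Unigene0056518, the most abundant SR unigene per length, with 155, 168 and 152 CPM in the August libraries and 151, 157 and 157 CPM in the September libraries and no call (log2 fold change -0.03, adjusted p = 0.707). The unigene with the symbol PAD4, Unigene0002379, had 33.3, 32.5 and 25.2 CPM in the August libraries and 57.5, 62.6 and 62.9 CPM in the September libraries (log2 fold change 1.01, SE 0.107, adjusted p = 2.11e-05). With other unigenes of its best hit summed, its log2 fold change was 0.55. RS2Z33, a plant SR protein with zinc knuckles, had 44.1 ± 5.81 CPM in August and 60.6 ± 3.00 CPM in September (log2 fold change 0.46, adjusted p = 0.00227).

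SC35, the SRSF2 entry, had 3 unigenes, of which only the most abundant by counts passed. Unigene0024867 had 187, 192 and 189 CPM in the August libraries and 125, 126 and 128 CPM in the September libraries (log2 fold change -0.59, SE 0.0516, adjusted p = 5.96e-06). Its libraries within a month were close and the months did not overlap. The other SC35 unigenes had log2 fold changes of 0.06 and 0.00. Summed, SRSF2 had 358 ± 13.0 CPM in August and 299 ± 7.12 CPM in September (log2 fold change -0.26, adjusted p = 0.00173). Of the SC35-like proteins, SCL30A had 12.6 ± 1.25 CPM in August and 24.6 ± 1.69 CPM in September (log2 fold change 0.96, adjusted p = 5.17e-05). SCL33, with 102 ± 13.2 CPM in August and 111 ± 12.6 CPM in September, and SCL28, with 1.76 ± 0.663 CPM in August and 1.87 ± 0.163 CPM in September, did not pass.

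The hnRNP members all carry the hnRNP A1 entry, and 11 of 13 were tested: 4 were higher, 2 lower and 5 did not pass. They held the most abundant transcripts of the set, with a summed level of 2404 ± 71.6 CPM in August and 2797 ± 35.4 CPM in September. UBA2C, related to RNA-binding partners of UBP1 in Arabidopsis, had 5 unigenes. Unigene0016609, the most abundant member of all per length at 292 ± 12.0 FPKM in August and 458 ± 9.72 FPKM in September, had 805, 759 and 739 CPM in the August libraries and 1240.5, 1189 and 1195 CPM in the September libraries (log2 fold change 0.65, SE 0.0552, adjusted p = 4.52e-06). Unigene0056446 had 579, 523 and 517 CPM in the August libraries and 410.2, 381 and 403 CPM in the September libraries (log2 fold change -0.44, SE 0.0623, adjusted p = 1.45e-04). The first rose and the second fell, without overlap. Unigene0006260 also fell (log2 fold change -0.46, adjusted p = 2.59e-04), while Unigene0033332 had 192 ± 17.7 CPM in August and 206 ± 4.87 CPM in September and did not pass (log2 fold change 0.10, adjusted p = 0.231). Unigene0069542 had 23.0 ± 2.19 CPM in August and 27.5 ± 2.10 CPM in September (adjusted p = 0.0567) and passed without the first August library (0.31, adjusted p = 0.0348). UBA2A had 202 ± 27.7 CPM in August and 267 ± 5.55 CPM in September (log2 fold change 0.41, adjusted p = 0.00232). Of 3 RNP1 unigenes, Unigene0050895 rose (log2 fold change 0.29, adjusted p = 0.00713), Unigene0019736 was called higher at adjusted p = 0.0403, a call lost without either of the first 2 August libraries or any September library (adjusted p from 0.0731 to 0.167), and Unigene0030566 had 316 ± 30.8 CPM in August and 319 ± 17.6 CPM in September and did not pass.

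TREX couples splicing to mRNA export, and its THO part had 4 unigenes, 2 of them tested. THO3 had 139, 148 and 142 CPM in the August libraries and 66.0, 73.7 and 71.8 CPM in the September libraries (log2 fold change -1.02, SE 0.0648, adjusted p = 7.16e-07). All 3 August libraries were about 2-fold above the September libraries, with the smallest adjusted p of any member. THO1 Unigene0018402 had 219.8, 198 and 197 CPM in the August libraries and 229.9, 227 and 229 CPM in the September libraries and was called higher (log2 fold change 0.16, adjusted p = 0.0358). The THO1 call was lost without the second August library (0.11, adjusted p = 0.169) or the third (0.10, adjusted p = 0.194), and without any 1 September library (adjusted p from 0.0687 to 0.0795).

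The 12 untested members had few counts. The 4 HSP70-type chaperones (symbols BIP1, Hsc70-3, dnaK and SSA2) were kept by the rule because their symbols do not begin with HSP or HSC in capitals. Together they had 0.247 ± 0.165 CPM in August and 0.477 ± 0.241 CPM in September. None of them was tested, so no count of calls above includes them. BCAS2 Unigene0064264, a second unigene of the PRP19 complex protein SPF27, had 4, 5 and 3 counts in the August libraries and 0 in each September library. Its August counts, scaled to library size, were 3.95 times a floor of 3 counts over the 3 September libraries. The floor covers the counting error of the September zeros only, and that of the August counts was left out. RSZ21A Unigene0056520 had 0 counts in August and 2, 3 and 1 in September. These were 2.02 times the same floor in August, again without the counting error of the September counts. The remaining 6 were unigenes of UBA2B, THO1 (a pair), MSI1, CDC5L and SCL28.

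Several subunits had unigenes with different calls. Counts were also summed over the unigenes of each orthology entry and tested again, a choice made after the values were seen. Of 65 entries tested, 16 were higher, 28 lower and 21 did not pass, and the median log2 fold change was -0.08. Of 23 entries with several unigenes, 7 had unigenes passing in both directions. Only 3 entries changed at least 2-fold when summed, beside 12 single unigenes. In the summed counts U1 had 4 of 6 entries higher and 1 lower. U2 had 1 of 13 higher and 8 lower, and the PRP19 complex 0 of 11 higher and 6 lower. SR proteins had 4 of 6 entries higher (SRSF1, SRSF4/5/6, SRSF7 and TRA2) and 1 lower (SRSF2). All calls by entry rest on summed counts, in which long unigenes weigh more than short ones.

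The direction of change went with the length of the unigene, a pattern noticed in these values and given as a description. Lengths are those implied by the ratio of deposited counts to FPKM. Among tested members under 2000 bases, 3 of 44 were higher and 22 lower (median log2 fold change -0.30). Between 2000 and 4000 bases, 15 of 40 were higher and 11 lower (median 0.07). From 4000 bases up, 15 of 27 were higher and 5 lower (median 0.29), and the number lower was 3 without any 1 of the September libraries. Among all tested unigenes the same classes held 4539 higher and 4247 lower of 13292, 2750 higher and 2658 lower of 7820, and 920 higher and 636 lower of 2104. The higher members had a median length of 3858 bases, those lower 1741 bases and those not passing 2128 bases.

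Spearman's rho between length and log2 fold change was 0.40 across the 111 members, from 0.37 to 0.42 with single libraries left out. These unigenes share libraries, and some share a gene. Across all 23216 tested unigenes rho was 0.01, and across the 14174 with a mean of at least 5 CPM it was 0.15. It was 0.35 across the 46 members that are the sole tested unigene of their subunit. In the conifer-hit unigenes of neighbouring pathways, rho was 0.07 for mRNA surveillance, 0.19 for nucleocytoplasmic transport and 0.06 for RNA degradation. It was 0.04 for the 48 other spliceosome unigenes whose best hit lies outside the 3 genera. Among 19 subunits with several tested unigenes, the longest had the higher log2 fold change of the longest and shortest in 13 and the lower in 6. SR30, with 8246 bases for the unigene that rose and 1726 for the one that fell, and U1C, with 6216 for the one that rose and 1758 for the one that did not pass, are examples of the 13. Among the 6, SRSF4/5/6 had 1.88 at 1830 bases and 0.29 at 5821 bases. U2AF65 had 0.46 at 3225 bases and -0.21 at 4186 bases. Some pairs hardly differed in length, such as the SF3B14 unigenes of 848 and 851 bases. What sets a unigene's length was not tested.

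**Figure D5:**
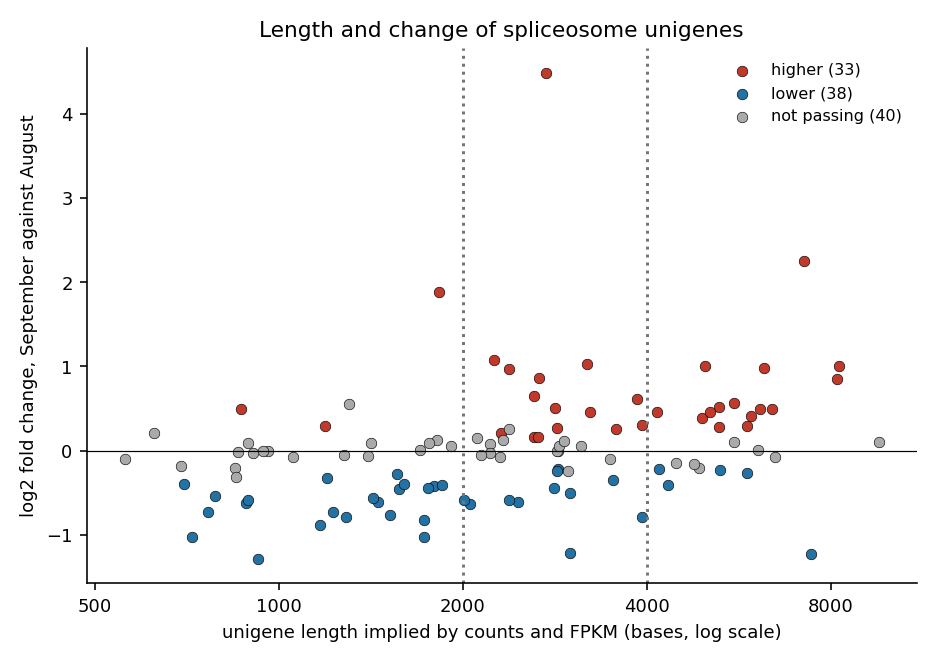
Length implied by counts and FPKM (x axis, bases, log scale) against the edgeR log2 fold change of September against August (y axis) for the 111 tested members, coloured by call. Dotted lines mark 2000 and 4000 bases. Left of 2000 bases 22 unigenes are lower and 3 higher, and right of 4000 bases 15 are higher and 5 lower.

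The unigenes of the pathway that the rule left out had other balances. Those with an HSP or HSC symbol, heat-shock proteins that KEGG files here, had 9 higher and 1 lower of 15 tested (median log2 fold change 0.53). Summed, they reached 3963 ± 372 CPM in August and 6972 ± 216 CPM in September. Those also in mRNA surveillance had 2 higher and 7 lower of 14 tested (median -0.27). Those with a best hit in another genus had 8 higher and 20 lower of 48 tested (median -0.13). Among conifer-hit unigenes of neighbouring pathways, mRNA surveillance had 16 higher and 40 lower of 76 tested (median -0.32). Nucleocytoplasmic transport had 13 higher and 31 lower of 59 (median -0.30), and RNA degradation had 18 higher and 28 lower of 64 (median -0.21). These counts stand side by side with the 33 higher and 38 lower of 111 members, and no difference between the lists was tested.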

How the data were processed

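Kernels of Pinus armandii were sequenced as 3 libraries per harvest month. Per the submitters' processing notes, fastp and RSEM were used, with no versions. Assembler, annotation programs, library kit and strandedness are not given in any source used here. Per the file headers, the table of the authors holds an estimated count per unigene and library, without normalization, and an FPKM value beside it. Only 8 of 390702 deposited estimated counts were fractional, and rounding was applied to every one. Each library had its own column.

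Rounded estimated counts of the whole table entered edgeR 4.0.16 (R 4.3.3): TMM size factors, filterByExpr by month (minimum count 10, minimum total 15), quasi-likelihood F test, Benjamini-Hochberg adjustment over 23216 tested unigenes, threshold 0.05. An adjusted p without a named tool is from edgeR, and each SE follows from its F value. Values after ± are SDs over the 3 libraries of a month. CPM values use TMM-scaled library sizes. In simulated counts of 22406 unigenes for this comparison, 22 of 50 changes of 1.5-fold were recovered, 30 of 50 of 2-fold, 48 of 50 of 4-fold and 50 of 50 of 8-fold, with 11 false calls among 161. Far fewer unigenes changed in the simulation than passed in the data, and the adjusted p depends on that number. The recovered shares therefore do not carry over to the members.

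The members and lists were chosen with earlier results of these data known. Roles were assigned from orthology entries without expression values in view. By rule, the text names the 6 rises and 6 falls of greatest size in passing members whose months do not overlap and whose mean reaches 5 CPM, the most abundant member and the largest change of each role, unigenes with the same symbol, and symbols with passing unigenes in both directions. Other members were named after their values were seen. Alternatives were RLE size factors, DESeq2 1.42.0, no filter, a replicate block, counts summed over the same best hit, each library left out, any genus of best hit, and a 5 CPM minimum. Summing by subunit and the chaperone and length lists were added after the data were seen. Floors of 3 counts cover the counting error of the month without counts only. No reference sequences were used.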

Additional observations from a re-analysis of the deposited data

How the results depend on the processing

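Of the 71 passing members, 56 kept call and direction under every alternative for single unigenes, 14 lost the call under at least 1, each of them with a library left out, and 1 turned. All of the 14 but SF3B2, PQBP1 and SF3B3 also lost it with DESeq2 on all 6 libraries (DESeq2 adjusted p from 0.0541 to 0.202). Some also lost it without the low-count filter. The members called numbered 61 to 71 across RLE, DESeq2, no filter, the block and single libraries left out, with 26 to 33 higher and 34 to 41 lower. With the replicate block 71 passed, 32 higher and 39 lower. The numbers were not taken as pairs: deviations from the month means correlated at 0.092, 0.043 and 0.030 between libraries numbered 1, 2 and 3, and the third August library correlated best with the second September library (0.043).

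The median log2 fold change of all tested unigenes moved from 0.0307 to 0.0356 with RLE, 0.160 with DESeq2, 0.333 without a filter and 0.0250 with best hits summed, and ranged from 0.0237 to 0.0643 with single libraries left out. That of the members moved from -0.0206 to -0.0488 with DESeq2, -0.0618 without a filter, 0.00633 with best hits summed and -0.0752 with subunits summed, and ranged from -0.0820 to -0.0170 with libraries left out. Its sign therefore depends on how unigenes are grouped. With subunits summed 44 entries passed, 16 of them higher. Without the condition on genus 58 of 159 tested unigenes were lower (36.5%), beside 38 of 111 (34.2%).

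With DESeq2 and without a filter, 2 Sm and LSm unigenes were higher and 0 THO unigenes, and with DESeq2 1 U1 unigene was lower. With best hits summed 2 SR unigenes were lower. Left-out libraries gave 2 to 5 Sm and LSm unigenes higher, 1 to 3 U1 unigenes lower, 0 to 1 THO unigenes higher and 3 to 6 unigenes of 4000 bases or more lower. The Sm and LSm median turned to 0.0247 with best hits summed and ranged from -0.0672 to 0.0849 with libraries left out, and that of the helicases ranged from -0.381 to 0.00428. Where these signs turned, the cause was not tested.

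With best hits summed SNRPD2 (Unigene0061544) turned to 0.00653, RSZ21A (Unigene0056518) to 0.00612, U2AF35B (Unigene0006095) to 0.323 and SR34A (Unigene0042105) to 0.598. In the U2AF35B and SR34A sums another unigene was included, while no other unigene shares the best hit of SNRPD2 or RSZ21A. With RLE the U2AF35B unigene had 0.00308. SR30 (Unigene0071749) had -0.0201 with DESeq2 and -0.0327 without a filter. With libraries left out, ranges that crossed 0 were -0.0843 to 0.00999 for SNRPD2, -0.0760 to 0.0370 for this U2AF35B unigene, -0.0277 to 0.0419 for SR30 (Unigene0071749), -0.0484 to 0.186 for SR30 (Unigene0035814) and -0.0479 to 0.209 for U1C (Unigene0068668). Apart from SR34A, none of these passed as reported. The 12 untested members had too few counts for the test. A member that did not pass may still have changed, since not passing does not show that a level stayed the same.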
